A study of Mus musculus with 15 samples.

Results

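Mouse macrophages that received IL-4 and IL-13 together with the MYC inhibitor 10058F4 were compared with resting macrophages, to see which cytokine effects remained under the inhibitor and which genes left both the resting and the M2 level. The comparison was chosen by sample title and held 6 of the 15 arrays of the series, 3 of M2 cells with 10058F4 and 3 of M0 cells. The 3 arrays of M2 cells without an agent served as the second reference. All cells were macrophages grown from mouse bone marrow with the growth factor M-CSF over 7 days. M0 cells were left untreated, M2 cells received IL-4 and IL-13, and the inhibitor group received both cytokines and 10058F4. The remaining 6 arrays held cells given LPS and interferon-gamma and M2 cells given nutlin-3a. They helped to estimate the spread, to choose the probe set of each gene and to decide which genes were tested. The nutlin-3a group is also compared for a few genes below. The dose, time and vehicle of 10058F4, and the strain, sex and age of the mice, were not stated in the sources used here. No resting cells with 10058F4 were analysed here, so an effect of the inhibitor on the macrophage itself and an effect on the cytokine response cannot be told apart. The 3 samples of a group are labelled as biological replicates, with no word on whether each had its own mouse or culture. The p-values therefore measure the spread between these samples alone, part of which may be technical.

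IL-4 and IL-13 signal through receptors that share the IL-4 receptor alpha chain and activate the transcription factor STAT6, which switches on the genes by which M2, or alternatively activated, macrophages are known. MYC is a transcription factor that binds DNA as a dimer with MAX, mostly at E-box sequences, and drives ribosome production, metabolism and growth. It is itself induced by IL-4 in macrophages. 10058F4 is a small molecule that keeps MYC from dimerising with MAX, so it acts on the protein and not on the Myc transcript.

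Values are log2 expression after RMA, which corrects the background of each array and gives all arrays 1 distribution of intensities, so that a difference of 1 on this scale means a 2-fold change. Of 18193 genes represented on the array, 13703 were high enough on at least 3 arrays to be tested with limma, and a gene was called at a Benjamini-Hochberg adjusted p under 0.05. The number of arrays, 3 in each group, limits the precision. Across the 18193 genes, arrays of the same group correlated with r from 0.996 to 0.998 in the 3 groups compared. RNA integrity was read as the log2 level of the 3' minus that of the 5' control probe set of a housekeeping gene, and for beta-actin this was 0.351 ± 0.0543 (SD, n = 3) in M0, 0.382 ± 0.0302 in M2 and 0.489 ± 0.025 with 10058F4. The beta-actin value was higher with 10058F4 than in M0 by 0.137 (two-sided exact permutation p = 0.1, the smallest that 3 against 3 arrays allow), and its part in the results was not tested. For Gapdh it was -0.273 in M0 and -0.272 with 10058F4. Markers of macrophage identity were high in all groups. The summed level of the 11 tested identity genes lay between 15.81 and 15.85 (log2) on the M0 arrays and between 15.76 and 15.78 with 10058F4.

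Against M0 cells, M2 cells with 10058F4 had 1912 genes higher, 14% of those tested, and 2613 genes lower, 19.1%. By at least 2-fold, 241 genes rose and 298 fell, 1.76% and 2.17% of the genes tested. Of all called genes 42.3% were higher, and this share rested on the scaling of the arrays. With arrays centred on their median it was 58.1%, with 2828 genes higher and 2042 lower, and the median difference of all genes moved from 0.01 to 0.09. M2 cells without an agent had 1735 genes higher than M0, 12.7%, and 2518 lower, 18.4%. Against those M2 cells, the inhibitor group had 1456 genes higher, 10.6%, and 1402 lower, 10.2%. These shares are the background for the counts of each gene list below. The 3 comparisons share arrays, so their counts are not independent of each other.

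A cytokine effect was counted as persisting when the gene was also called, in the same direction, in 10058F4-treated M2 cells against M0. It was counted as reduced when the gene was called against M2 in the direction of the resting level. Of the 1735 genes that rose with IL-4 and IL-13, 947 (54.6%, and 6.91% of all tested genes) persisted. Of these, 143 were higher still than in M2, 122 were lower than in M2, and 682 had no call against M2, which does not show that their levels were equal. A further 302 rises (17.4%) were reduced and no longer called against M0, and 47 (2.71%) had fallen below the resting level. Reduced rises in all numbered 471, 3.44% of tested genes. The other 439 had no call in either comparison with the inhibitor. Among 2518 genes that fell with the cytokines, 1581 (62.8%, and 11.5% of tested genes) persisted, 451 (17.9%) were reduced without a call against M0, and 85 (3.38%) passed above the resting level. Reduced falls in all numbered 660, 4.82% of tested genes. Of the rises, 200 were of at least 2-fold (1.46% of tested genes), and 172 of these persisted (86%), while 94 (47%) were reduced. For these 200 genes the median difference from M0 was 1.42 in M2 and 1.22 with 10058F4, beside medians of 0.00 and 0.01 over all tested genes. Of 219 falls of at least 2-fold (1.6% of tested genes), 182 persisted (83.1%) and 74 were reduced (33.8%), and their median difference from M0 was -1.27 in M2 and -1.12 with 10058F4. These rises and falls were chosen by the size of their difference in M2, and the choice itself enlarges the M2 median. The smaller median with 10058F4 is therefore no measure of what the inhibitor took away.

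**Figure D1:**
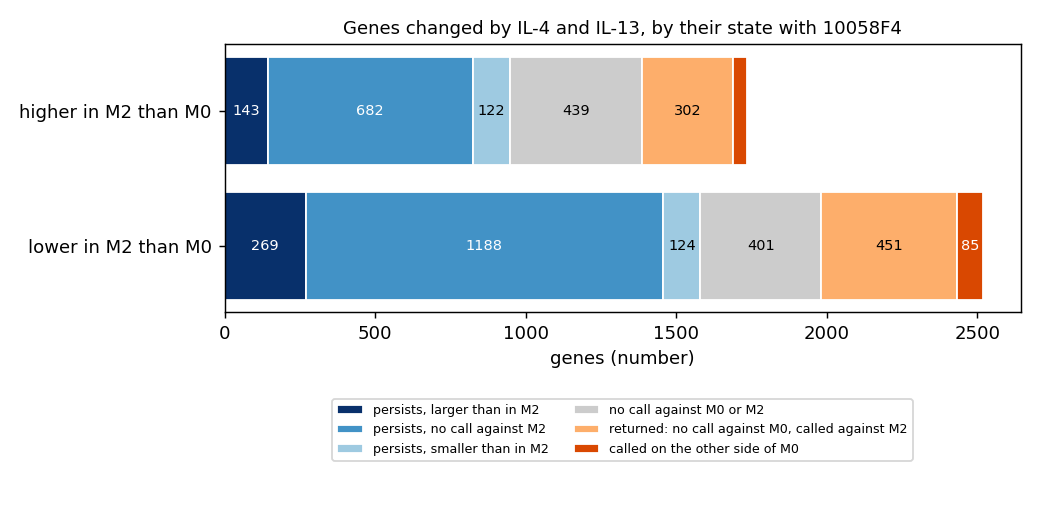
Number of genes (horizontal axis) called higher (upper bar) or lower (lower bar) in M2 than in M0 cells, divided by their calls in M2 cells with 10058F4. The blue segments persist, 947 of 1735 rises and 1581 of 2518 falls; the unnumbered segment at the right end of the upper bar holds 47 genes.

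In the order of the pathway, the receptor and its regulators came first. Il4ra, the IL-4 receptor alpha chain, read 7.74 on each of the 3 M0 arrays, 8.23, 8.30 and 8.25 in M2, and 8.71, 8.69 and 8.57 with 10058F4. The 3 groups did not overlap. Over all tested genes, 51.9% had no overlap between the inhibitor and M0 arrays and 44.2% none between the inhibitor and M2 arrays, so this alone sets no gene apart. For Il4ra the inhibitor group was the highest (0.92 above M0, SE 0.06, adjusted p = 2.2e-08, and 0.40 above M2, SE 0.06, adjusted p = 0.00016). Stat6 itself moved the other way, from a mean of 9.49 in M0 to 9.30 in M2 and 9.10 with 10058F4, with -0.39 against M0 (adjusted p = 0.00048). Its difference of -0.20 from M2 was just called (adjusted p = 0.049) and lost the call when any 1 of the 9 arrays was left out (adjusted p up to 0.16). Socs1 and Cish, feedback inhibitors of cytokine receptors, kept their rises, 2.85 and 2.55 above M0 with the inhibitor against 2.95 and 2.85 in M2. Cish was not called between the inhibitor and M2 (-0.30, adjusted p = 0.055) and was when the replicate numbers were blocked (adjusted p = 0.047) or without M0 replicate 2 (adjusted p = 0.017). Socs2, another member of that family, read 4.67, 5.05 and 4.74 in M0, 9.32, 9.14 and 9.24 in M2 and 10.96, 11.02 and 10.86 with 10058F4. Its level was thus highest with the inhibitor, without overlap (6.13 above M0, SE 0.13, adjusted p = 4.7e-13, and 1.72 above M2, SE 0.13, adjusted p = 4.5e-07). Ptpn6, the phosphatase SHP-1 that damps cytokine signalling, was near the resting level in M2 cells (10.23 in M0, 10.02 in M2) and 8.48 with 10058F4, a difference of -1.75 from M0 (SE 0.09) and -1.54 from M2 (SE 0.09). Il13ra1, an IL-13 receptor chain, fell by 1.51 in M2 and by 1.64 with the inhibitor. Of the 12 tested genes of IL-4 receptor signalling, 5 were higher and 4 lower than in M0 with 10058F4. The shares over all tested genes were 14% and 19.1%.

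Most of the established M2 markers raised by the cytokines were still above the resting level with the inhibitor. Of 30 marker genes 27 were tested, and with 10058F4 21 were called higher than in M0 and 1, F13a1, lower (median 1.16, against 0.01 over all tested genes). In M2 cells without the agent 21 were also called higher (median 1.70), but the 2 sets shared 18 genes. Fn1 (fibronectin), Matk and Pparg were called in M2 and not with 10058F4, and Ccl17, Cd36 and Il1rn with 10058F4 and not in M2. With the replicate numbers blocked, Cd209a (0.28, adjusted p = 0.038) joined those called with 10058F4. Against M2, however, 11 markers were lower and 7 higher with the inhibitor (median -0.25), so the members moved in both directions.

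Arginase 1, the enzyme that turns arginine into ornithine and the most used M2 marker of mouse cells, kept its rise. Arg1 read 3.86, 3.41 and 3.40 in M0, 9.93, 10.66 and 10.53 in M2 and 9.81, 10.72 and 10.50 with 10058F4. The arrays of M2 with and without the inhibitor overlapped and lay far above M0 (6.78 above M0, SE 0.66, adjusted p = 2.2e-06; -0.03 against M2, SE 0.66, adjusted p = 0.98). Its M0 level was below the level that the filter used, so the size of that rise is not exact. Tmem26, a membrane protein gene, read 5.44, 5.94 and 5.87 in M0, 10.79, 10.77 and 10.89 in M2 and 10.74, 10.92 and 10.73 with 10058F4. It too overlapped with M2 and was 33.2-fold above M0 (5.05, SE 0.17, adjusted p = 7.7e-11). Slc7a2, a transporter that brings arginine into the cell, was 4.03 above M0 with the inhibitor and 3.83 in M2, with no call between them. Mrc1, the mannose receptor, was 2.38 and 2.03 above M0, again with no call (adjusted p = 0.4). In a limma fit of the 9 arrays of these 3 groups alone, its difference of 0.35 from M2 was called (adjusted p = 0.016). Pdcd1lg2, the inhibitory T cell ligand PD-L2, read 4.42, 4.44 and 4.39 in M0, 9.38, 9.32 and 9.48 in M2 and 8.96, 8.95 and 9.11 with 10058F4. It was 4.59 above M0 with the inhibitor, but its arrays lay below those of M2 without overlap (-0.38, SE 0.09, adjusted p = 0.0057). Rasgrp1, an activator of Ras, was 4.67 above M0 and had a difference of -0.38 from M2 (adjusted p = 0.14, and 0.013 without M0 replicate 2).

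Some M2 genes went past their M2 level. Chil3, the chitinase-like protein Ym1, read 4.58, 5.35 and 4.99 in M0, 9.17, 9.28 and 9.79 in M2 and 10.70, 10.76 and 10.98 with 10058F4. All inhibitor arrays were above all M2 arrays (1.40, SE 0.19, adjusted p = 9.9e-05). Klf4, a transcription factor that cooperates with STAT6, rose by 1.80 in M2 and was 3.14 above M0 with 10058F4 (1.34 above M2, SE 0.14, adjusted p = 1.3e-05). Clec10a, a galactose-binding lectin of macrophages, was 0.84 above M0 in M2 and 2.13 with the inhibitor. Prps1, which makes the sugar phosphate for nucleotides, went from 7.78 in M0 to 11.15 in M2 and 11.76 with 10058F4 (0.61 above M2, adjusted p = 0.00036). Ccl17, a chemokine for T helper cells, had no call in M2 (0.13) and was 1.16 above M0 and 1.03 above M2 with the inhibitor.

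The largest reductions among cytokine-raised genes included transcription factors, a secreted protein and receptors. Irf4, the transcription factor that drives much of the M2 programme, read 3.84, 4.12 and 3.91 in M0, 7.44, 7.18 and 7.37 in M2 and 4.88, 4.75 and 4.85 with 10058F4. The inhibitor arrays lay close to M0 and far from M2, without overlap with either (-2.50 against M2, SE 0.09, adjusted p = 6.3e-10; 0.87 above M0, adjusted p = 5e-06). Its M0 level was below the filter's level. A second Irf4 probe set had 0.02 against M0 and -0.84 against M2. Retnla, the secreted protein Fizz1, read 4.56, 4.20 and 4.60 in M0, 9.87, 9.67 and 9.44 in M2 and 7.05, 7.62 and 6.86 with 10058F4. It stood between the groups, 2.73 above M0 (SE 0.18, adjusted p = 4.3e-08) and lower than M2 (-2.48, SE 0.18, adjusted p = 3.5e-07). Egr2, a zinc finger factor induced by IL-4, read 8.39, 8.25 and 8.55 in M0, 11.16, 11.04 and 11.04 in M2 and 9.65, 9.58 and 9.56 with 10058F4. It also stood between them, with 1.21 against M0 and -1.48 against M2. Flt1, a receptor for vascular endothelial growth factor, and F2r, the thrombin receptor, had the same calls, with -1.69 and -1.78 against M2, and were 2.38-fold and 3.99-fold above M0.

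Pdgfa, a chain of platelet-derived growth factor, returned to the resting range. It read 7.25, 7.43 and 7.34 in M0, 8.93, 9.24 and 9.16 in M2 and 7.45, 7.37 and 7.33 with 10058F4. The inhibitor and M0 arrays overlapped (0.04, SE 0.14, adjusted p = 0.85), while against M2 the gene was at -1.73 (adjusted p = 1.4e-06). A second Pdgfa probe set had -1.72 against M2. Pald1 had -2.14 against M2 and was 0.47 above M0, and the latter call (adjusted p = 0.047) was lost without any 1 of 8 of the 9 arrays. Etv5, a factor downstream of ERK, and Matk, a kinase and M2 marker, had -1.62 and -1.59 against M2, with differences from M0 of -0.53 (adjusted p = 0.085, and 0.00053 without M0 replicate 1) and -0.37 (adjusted p = 0.11). Hivep3, a zinc finger protein, passed below the resting level. It read 7.44, 7.47 and 7.26 in M0, 8.42, 8.65 and 8.54 in M2 and 6.22, 6.24 and 6.06 with 10058F4. The inhibitor arrays were the lowest, without overlap (-1.22 against M0, SE 0.08, and -2.37 against M2, SE 0.08). Of its 5 probe sets 2 shared the direction against M0, and their differences ran from -1.22 to 0.16. Among the other M2 markers, Cdh1, the adhesion protein E-cadherin, and the chemokine Ccl24 had -1.03 and -0.94 against M2 but stayed 2.62 and 0.86 above M0. Mgl2, a second galactose-binding lectin, had -1.20 against M2. Its remaining difference of 0.65 from M0 (adjusted p = 0.02) lost its call without M0 replicate 2 (adjusted p = 0.077) or 10058F4 replicate 2 (adjusted p = 0.097).

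**Figure D2:**
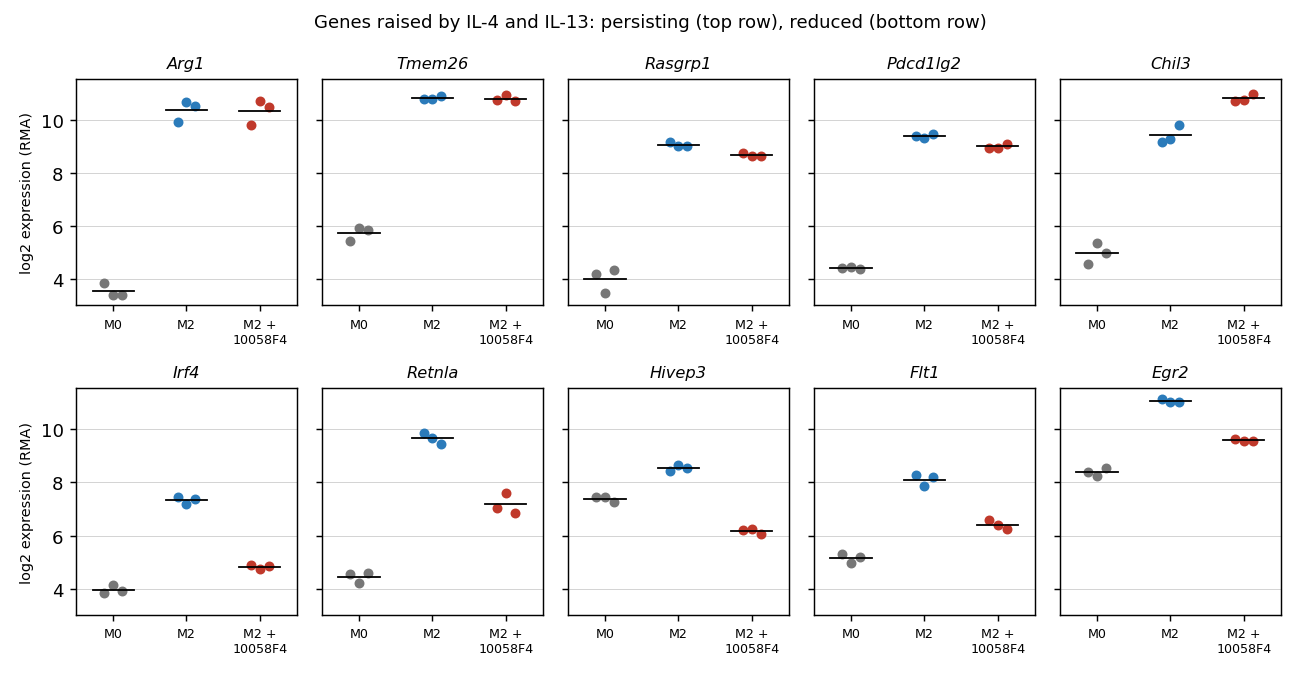
Log2 expression after RMA (vertical axis) on each array (points) of M0, M2 and M2 + 10058F4 cells, with the mean of 3 arrays as a line, for 10 genes raised by IL-4 and IL-13. In the top row the inhibitor group stays near or above the M2 level, as for Arg1 (means 10.37 and 10.34) and Chil3 (9.41 and 10.81); in the bottom row it moves toward or past the resting level, as for Irf4 (7.33 to 4.83) and Hivep3 (8.54 to 6.17).

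The promoters of the persisting and the reduced gene that ranked highest and held the searched motif were read from the RefSeq table of GRCm38.p6. They show the sequence around starts that answer the same cytokines and part under the inhibitor. That each held the motif was fixed by this choice. Irf4, which ranked above Retnla, had no match in its promoter, and for Arg1, which ranked above Tmem26, no promoter was found. The motif searched was TTCNNNNGAA, the form that STAT6 prefers, with N for any base, and it reads alike on both strands. Each window runs from 250 bases before to 50 after the start, 5′ to 3′ on the gene's strand, and capitals mark the motif. Tmem26 (chr10:68723496-68723795, plus strand) held 2 matches and Retnla (chr16:48842359-48842658, plus strand) held 1.
Tmem26: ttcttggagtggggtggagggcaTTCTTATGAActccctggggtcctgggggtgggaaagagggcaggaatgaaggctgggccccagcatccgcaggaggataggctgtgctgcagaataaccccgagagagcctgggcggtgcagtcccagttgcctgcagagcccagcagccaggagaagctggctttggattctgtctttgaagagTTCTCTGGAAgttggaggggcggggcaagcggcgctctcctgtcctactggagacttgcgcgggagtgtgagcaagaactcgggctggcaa
Retnla: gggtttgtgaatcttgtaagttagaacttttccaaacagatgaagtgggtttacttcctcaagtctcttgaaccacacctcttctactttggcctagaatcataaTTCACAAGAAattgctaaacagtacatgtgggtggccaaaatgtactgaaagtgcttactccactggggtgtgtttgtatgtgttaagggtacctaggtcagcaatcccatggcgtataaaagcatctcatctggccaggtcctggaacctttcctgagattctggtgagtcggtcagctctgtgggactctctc
The motif was found in 6.95% of all 32851 promoters of the table and in 5.49% of the promoters of tested genes. It was in 8.61% of the promoters of persisting rises and in 7.42% of those of reduced rises, shares that lie close to each other. Of the 31 promoters of M2 marker genes 9 held it. A match is a run of letters and not a measured binding site.

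Most genes that fell with the cytokines were also lower than in M0 with 10058F4. Type I interferon-stimulated genes, the antiviral set, were lower than in M0 for 19 of 23 tested members with the inhibitor and for 20 in M2, with medians of -1.22 and -0.94. Ifit3 read 10.60, 9.83 and 9.94 in M0, 7.78, 7.55 and 8.08 in M2 and 7.69, 7.02 and 7.43 with 10058F4. The arrays of both cytokine groups overlapped and lay below M0 (-2.74 with the inhibitor, SE 0.20, adjusted p = 1.4e-07, and -2.32 in M2). Mx1, an antiviral GTPase, was further below M0 with the inhibitor (-2.39) than in M2 (-1.56), a difference of -0.84 that was called. Against M2, 7 members were lower, a count that was 3 without M2 replicate 3 or without 10058F4 replicate 2 and 4 without 10058F4 replicate 3. Ifit1bl1, a relative of Ifit1, had the largest fall of all named genes, from 8.08 in M0 to 4.61 (-3.47, SE 0.19, adjusted p = 6.7e-09), with 5.07 in M2. C5ar1, the receptor for complement C5a, and Ptpn22, a phosphatase of immune signalling, fell by 2.21 and 2.15. Slc40a1, the iron exporter ferroportin, fell from 12.07 in M0 to 8.47 in M2 and stood at 9.74 with 10058F4. It was still below M0 (-2.32, SE 0.30, adjusted p = 3.5e-05) and was 1.27 above M2 (adjusted p = 0.0079).

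Other falls were reduced or passed. Pstpip2, an adaptor that bends membranes and restrains inflammation, read 8.29, 8.09 and 8.19 in M0, 6.47, 6.28 and 6.37 in M2 and 8.22, 8.23 and 8.11 with 10058F4. The inhibitor arrays fell within the range of M0 (difference 0.00, SE 0.08, adjusted p = 0.98) and were 1.81 above M2 (adjusted p = 2.1e-09). Mertk, a receptor for the uptake of dying cells, read 10.28, 10.19 and 10.16 in M0, 8.86, 8.71 and 8.78 in M2 and 10.94, 10.88 and 10.96 with 10058F4. It fell with the cytokines and exceeded the resting level with the inhibitor, without overlap (0.72 above M0, adjusted p = 3.4e-05, and 2.15 above M2, adjusted p = 2.1e-09). Fos, a subunit of the AP-1 factor, followed the same order, 9.54 in M0, 8.41 in M2 and 10.32 with 10058F4, as did the Notch ligand Jag1, at 6.21, 5.00 and 7.29. The 3 Jag1 probe sets, however, ran from 0.07 to 1.08 against M0 and from -0.05 to 2.28 against M2. Abhd15 was 0.75 above M0 and 2.31 above M2, and its second probe set differed from M0 the other way (-0.16). Jdp2, a repressor of AP-1, was 1.86 above M0 and 2.67 above M2, and its more specific probe set had 0.27 (adjusted p = 0.07) and 0.03.

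Genes that left both levels upward numbered 665, 4.85% of those tested, and 70 did so by at least 2-fold in both comparisons. Of the 665, 437 had no call between M2 and M0, 143 rose in M2 and 85 fell there. Fkbp5, a co-chaperone that binds the glucocorticoid receptor, read 6.54, 6.92 and 6.46 in M0, 7.51, 7.30 and 7.62 in M2 and 12.26, 12.13 and 12.19 with 10058F4. Its inhibitor arrays stood far above all others (5.55 above M0, SE 0.15, adjusted p = 4.8e-12, and 4.72 above M2, SE 0.15, adjusted p = 1.4e-10). Of its 3 probe sets 2 rose, and the other had -0.04 against M0. Ddit4, an inhibitor of mTORC1 that rises with stress, read 5.78, 5.82 and 5.94 in M0, 5.49, 6.04 and 6.13 in M2 and 8.82, 8.43 and 8.67 with 10058F4. M0 and M2 overlapped and the inhibitor arrays lay above both (2.79 and 2.75, SE 0.15 each).

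Dusp1, the phosphatase that switches off p38 and JNK, read 8.38, 8.76 and 8.56 in M0, 8.03, 8.19 and 8.52 in M2 and 11.22, 11.04 and 11.30 with 10058F4. The inhibitor group was again above all arrays of the overlapping M0 and M2 groups (2.62 and 2.94, SE 0.13 each). Tsc22d3, the leucine zipper protein GILZ that opposes NF-κB and AP-1, read 10.04, 9.73 and 9.72 in M0, 9.75, 9.77 and 9.86 in M2 and 12.17, 12.19 and 12.18 with 10058F4. The same order held for it (2.35 and 2.39, SE 0.20 each). Rgs1, an inhibitor of G protein signalling, fell in M2 (8.95 to 7.97) and reached 11.65 with the inhibitor, 2.70 above M0 and 3.68 above M2. Ptger2, a prostaglandin E2 receptor, Per1, a clock gene, and Klf9, a transcription factor, were 2.43, 2.19 and 2.71 above M0 and 2.31, 2.44 and 1.21 above M2. Havcr2, the receptor TIM-3, and Lifr, the receptor for leukaemia inhibitory factor, were 2.50 and 2.47 above M0 and 2.06 and 2.03 above M2. Their smaller differences between M2 and M0 (0.44 and 0.43) had no call and were called when the replicate numbers were blocked (adjusted p = 0.017 and 0.013). Of 12 tested genes known to answer glucocorticoids, 10 were higher than in M0 with 10058F4 and 1 lower (median 1.64), and 9 were higher than in M2 (median 1.31). In M2 without the agent 4 of them were called higher than in M0 (median -0.03). This gene list was taken from an earlier look at these arrays, so its count is not independent evidence.

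Stress-response genes were also among those above both levels. Of 24 tested genes of ATF4, the factor that answers amino acid shortage, 14 were higher than in M0 with 10058F4 (median 0.40), against 8 in M2 (median 0.05), a count that was 5 without M2 replicate 3. Against M2 9 were higher and 1 lower (median 0.25), and the 9 became 5 without M2 replicate 1. Asns, which makes asparagine, read 6.29, 6.79 and 6.46 in M0, 6.45, 6.66 and 6.56 in M2 and 7.51, 7.96 and 7.39 with 10058F4. Its M0 and M2 arrays overlapped, and the inhibitor arrays were above them (1.10 above M0, SE 0.21, adjusted p = 0.00089). Atf5, a factor of the same response, was 1.68 above M0 and 1.04 above M2, and the cystine importer Slc7a11 was 1.33 and 1.44 above them. In the unfolded protein response 11 of 18 tested genes rose against M0 and 1 fell (median 0.39), and 6 were higher than in M2. Of all tested genes, 14% were higher and 19.1% lower than in M0, and 10.6% were higher than in M2. Pdia4, a folding enzyme of the endoplasmic reticulum, had the same rise with and without the inhibitor (1.83 each), while Dnajb9, a co-chaperone there, was 1.00 above M0 and 0.87 above M2. A second Pdia4 probe set was only 0.05 above M0 with the inhibitor.

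Genes below both levels numbered 790, 5.77% of those tested, of which 51 were lower by at least 2-fold in both comparisons. Of the 790, 474 had no call between M2 and M0, 269 fell in M2 and 47 rose there. Icam1, the adhesion molecule that binds leukocyte integrins, read 9.06, 8.99 and 9.01 in M0, 9.08, 9.29 and 9.12 in M2 and 7.08, 7.26 and 7.15 with 10058F4. All inhibitor arrays were below those of both other groups (-1.85 against M0, SE 0.07, adjusted p = 3.6e-10, and 3.99-fold lower than M2, adjusted p = 6.3e-10). Tlr1, a receptor for bacterial lipopeptides, read 8.45, 8.46 and 8.61 in M0, 8.28, 8.30 and 8.18 in M2 and 6.33, 6.46 and 6.31 with 10058F4. It was lowest with the inhibitor, without overlap (-2.14 and -1.89, SE 0.08 each). Its partner Tlr2 had -2.61 against M0 and -1.61 against M2. Enc1, an actin-binding protein, read 10.30, 9.88 and 9.32 in M0, 10.14, 9.94 and 9.99 in M2 and 7.68, 7.73 and 7.56 with 10058F4. Its M0 and M2 arrays overlapped, and the inhibitor arrays were below them (-2.18 and -2.36, SE 0.17 each).

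Several of the genes below both levels had already been called lower in M2 than in M0. Cxcl10, a chemokine induced by interferon, read 7.43, 6.88 and 7.21 in M0, 5.77, 5.88 and 6.54 in M2 and 4.72, 3.99 and 4.18 with 10058F4. The 3 groups formed descending steps without overlap (-2.87 against M0, SE 0.21, and -1.76 against M2, SE 0.21), and the lowest was below the filter's level, so these sizes are not exact. Nfkbiz, a co-regulator of NF-κB target genes, went from 8.15 to 6.12 in M2 and 4.95 with 10058F4. Gpr34, a receptor for lysophosphatidylserine, went from 6.56 to 4.59 and 3.17, the last below the filter's level. Sema4d, Marcksl1 and Zc3h12d had -2.63, -2.78 and -2.62 against M0 and -1.39, -1.28 and -1.62 against M2. The 3 Sema4d probe sets ran from -2.63 to -0.09 against M0 and from -1.39 to 0.02 against M2. The 4 of Marcksl1 ran from -2.78 to -0.88 and from -1.28 to -0.04. Rgs2, an inhibitor of G protein signalling related to Rgs1, had -2.50 against M0 and -1.77 against M2, the opposite direction to Rgs1. The 4 Rgs2 probe sets ran from -2.67 to -0.1 against M0 and from -1.77 to -0.01 against M2. S1pr1, a receptor for sphingosine 1-phosphate, and Neurl3, a ubiquitin ligase, had -2.51 and -2.33 against M0. By contrast, Plau, the plasminogen activator urokinase, and Prr5l, which binds the mTORC2 complex, were near their resting level in M2 (0.12 and -0.02, adjusted p = 0.73 and 0.94) and with 10058F4 had -1.64 and -1.78 against M0 and -1.76 and -1.75 against M2.

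Inflammatory cytokines and chemokines as a list were mixed against M0 with 10058F4, with 6 of 25 tested members higher and 8 lower (median -0.13). Against M2, 8 were lower and 1 higher (median -0.14). Of all tested genes, 14% were higher and 19.1% lower than in M0, and 10.2% were lower and 10.6% higher than in M2. Cd86, a costimulatory ligand for T cells, kept its cytokine rise (2.22 above M0, 2.16 in M2). Ccl3, a chemokine, had -1.95 against M0. In the MHC class II list 3 of 8 tested genes fell against M0 and 1, H2-Oa, rose (median -0.29). Ciita, the master regulator of these genes, was 2.01-fold lower than in M0 and had a log2 difference of -0.88 from M2. The call against M2 (adjusted p = 0.014) was lost without M2 replicate 3 or without 10058F4 replicate 2 or 3 (adjusted p from 0.055 to 0.062). The peptide-loading genes H2-DMa and H2-DMb2 had -0.64 and -0.68 against M0, and the first was not called when all its probe sets were averaged (-0.31, adjusted p = 0.16). The presenting molecules H2-Ab1, H2-Aa and H2-Eb1 had differences from M0 of -0.25, -0.12 and -0.33, with no call. H2-Oa was 0.63 above M0, a call lost without M0 replicate 3 (0.47, adjusted p = 0.075) and without 10058F4 replicate 1 or 3 (0.60, adjusted p = 0.051).

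**Figure D3:**
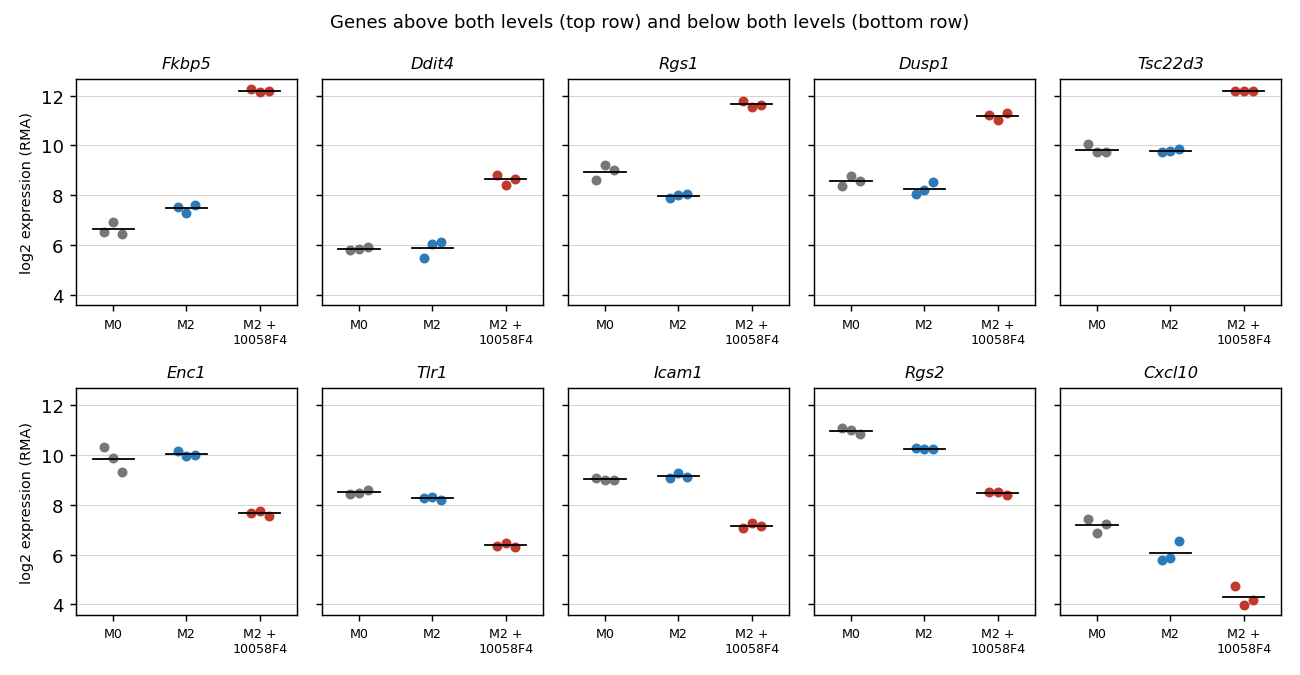
Log2 expression after RMA (vertical axis) on each array (points) of M0, M2 and M2 + 10058F4 cells, with the mean of 3 arrays as a line, for 5 genes above both levels (top row) and 5 below both (bottom row). The inhibitor arrays lie apart from both other groups in every panel, from Fkbp5 (mean 12.19 against 6.64 and 7.48) to Cxcl10 (4.30 against 7.17 and 6.06).

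The promoters of the gene above and the gene below both levels that ranked highest and held an E-box are shown because MYC and MAX bind that sequence. The motif searched was CACGTG, the same on both strands, in capitals. That each promoter held the motif was fixed by this choice. For Enc1, which ranked above Tlr1, no promoter was found. Tlr1 had 2 promoters, and the 1 that held the motif is shown. Fkbp5 (chr17:28486100-28486399, minus strand) and Tlr1 (chr5:64932650-64932949, minus strand) held 1 match each.
Fkbp5: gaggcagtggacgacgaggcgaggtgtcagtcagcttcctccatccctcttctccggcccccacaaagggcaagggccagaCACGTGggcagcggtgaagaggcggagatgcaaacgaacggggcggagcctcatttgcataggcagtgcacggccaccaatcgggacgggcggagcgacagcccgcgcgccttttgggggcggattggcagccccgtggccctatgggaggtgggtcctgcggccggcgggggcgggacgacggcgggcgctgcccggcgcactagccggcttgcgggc
Tlr1: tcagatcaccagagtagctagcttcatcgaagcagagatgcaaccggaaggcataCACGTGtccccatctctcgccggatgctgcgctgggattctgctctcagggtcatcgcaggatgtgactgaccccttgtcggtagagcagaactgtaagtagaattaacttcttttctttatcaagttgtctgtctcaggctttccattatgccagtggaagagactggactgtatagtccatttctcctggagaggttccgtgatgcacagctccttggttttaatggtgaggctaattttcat
The E-box was in 9.42% of the promoters of tested genes, in 11.8% of those of genes above both levels and in 8.42% of those of genes below both. Of 41 promoters of MYC target genes 15 held it. No binding of MYC was measured, and the presence of the letters says nothing of it.

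With nutlin-3a in place of 10058F4, M2 cells differed from M2 cells without an agent by a called amount in Fkbp5 (2.63), Tsc22d3 (1.66), Ddit4 (2.52), Chil3 (0.95) and Irf4 (-1.48). Fkbp5 was at 10.10 with nutlin-3a, between the M2 level (7.48) and that with 10058F4 (12.19), and Tsc22d3 was at 11.46, between 9.79 and 12.18. Ddit4 was at 8.41 with nutlin-3a and 8.64 with 10058F4, and Chil3 at 10.36 and 10.81, pairs without a call (adjusted p = 0.45 and 0.19). Irf4 was at 5.85 with nutlin-3a and 4.83 with 10058F4, a called difference (-1.03, adjusted p = 6.2e-06). Icam1 was at 9.33 with nutlin-3a, with no call against its M2 level of 9.16 (0.16, adjusted p = 0.17), and at 7.17 with 10058F4 (-2.16 between the agents, adjusted p = 3.7e-10).

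The Myc transcript did not separate the inhibitor group from M2. Myc read 6.27, 6.90 and 6.72 in M0, 7.50, 7.31 and 7.61 in M2 and 7.41, 7.45 and 7.57 with 10058F4. The arrays of both cytokine groups overlapped and lay above M0 (0.84 in each, SE 0.15, adjusted p = 0.00062 with 10058F4), and their difference was 0.00 (SE 0.15). Because 10058F4 acts on the protein, this level does not check the treatment. Max, its partner, was at 9.13 in M0, 8.91 in M2 and 8.76 with 10058F4 (-0.37 against M0, adjusted p = 0.012, and adjusted p = 0.055 without M0 replicate 2). Mlxip, which encodes MondoA, a glucose-sensing factor of the same network, read 7.84, 7.71 and 7.73 in M0, 7.95, 7.93 and 8.14 in M2 and 8.60, 8.56 and 8.58 with 10058F4. It was highest with the inhibitor, without overlap (0.82 above M0, adjusted p = 1.3e-06, and 0.57 above M2, adjusted p = 9.1e-05). Mxd4, a repressor that competes with MYC for MAX, had -0.27 against M0 and -0.53 against M2 on the probe set used, and on its specific probe sets had -0.31 and -0.35 with no call (adjusted p = 0.38 and 0.39). Of 12 tested genes of the network 2 were higher and 2 lower than in M0 (median 0.00), which is near the shares over all tested genes, 14% and 19.1%. The 2 lower became 1 without M0 replicate 2 and 3 without M0 replicate 3 or with the replicate numbers blocked.

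MYC target genes, mostly of ribosome production, were higher than in M0 for 26 of 41 tested members with 10058F4 and lower for 1, Polr1a (median 0.27). In M2 without the agent 21 were higher (median 0.24). Against M2, 7 were higher and 3 lower with the inhibitor (median -0.04). The count of 26 fell to 16 without M0 replicate 1 and to 16 without 10058F4 replicate 2, and the 3 became 1 without M2 replicate 2 or 3 or without 10058F4 replicate 1 or 3. With the replicate numbers blocked, Rrp9 (0.23, adjusted p = 0.039) and Utp20 (0.37, adjusted p = 0.045) were called too. Polr1a, a subunit of RNA polymerase I, had -0.30 on the probe set used, but of its 5 probe sets 2 shared that direction (range -0.30 to 0.09). Their mean gave -0.05 (adjusted p = 0.54), and the call was also lost with arrays centred on the median (-0.22, adjusted p = 0.082), with repeated quantile normalization (-0.22, adjusted p = 0.09) and without 10058F4 replicate 2 (-0.26, adjusted p = 0.057). Nolc1, a nucleolar protein, read 7.06, 7.47 and 7.28 in M0, 8.15, 8.32 and 7.98 in M2 and 7.82, 8.02 and 7.94 with 10058F4. Its cytokine groups overlapped and lay above M0 (0.66 with the inhibitor, SE 0.12, adjusted p = 0.00084). Srm, which makes spermidine, was 0.87 above M0 with the inhibitor and 0.70 in M2.

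Odc1, the first enzyme of polyamine synthesis and a classical MYC target, read 9.19, 9.27 and 9.03 in M0, 8.93, 9.05 and 9.11 in M2 and 9.93, 10.06 and 10.15 with 10058F4. M0 and M2 overlapped, and the inhibitor arrays were above both (0.88, SE 0.08, adjusted p = 1e-06, and 1.02, SE 0.08, adjusted p = 7.7e-07). Arg2, the mitochondrial arginase that also makes ornithine, was 2.14 above M0 and 1.97 above M2, with no call in M2 alone (0.18). Npm1, a nucleolar chaperone, was at 11.55, 11.44 and 11.79 and was called higher than both. Mthfd2, of mitochondrial folate metabolism, was 0.58 above M0 and 0.93 above M2. Tfrc, the transferrin receptor, rose by 1.30 in M2 and was 0.73 above M0 with 10058F4. Its call against M0 (adjusted p = 0.012) was lost without M0 replicate 1 (0.55, adjusted p = 0.061) or 10058F4 replicate 2 (0.57, adjusted p = 0.062). Its difference from M2 was -0.57 (adjusted p = 0.058) and was called when the replicate numbers were blocked (adjusted p = 0.00048). Fbl, which methylates ribosomal RNA, was at 9.38, 10.06 and 9.73, and its differences of 0.35 from M0 and -0.33 from M2 each lost their call without 1 of several arrays (highest adjusted p 0.073 and 0.13).

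**Figure D4:**
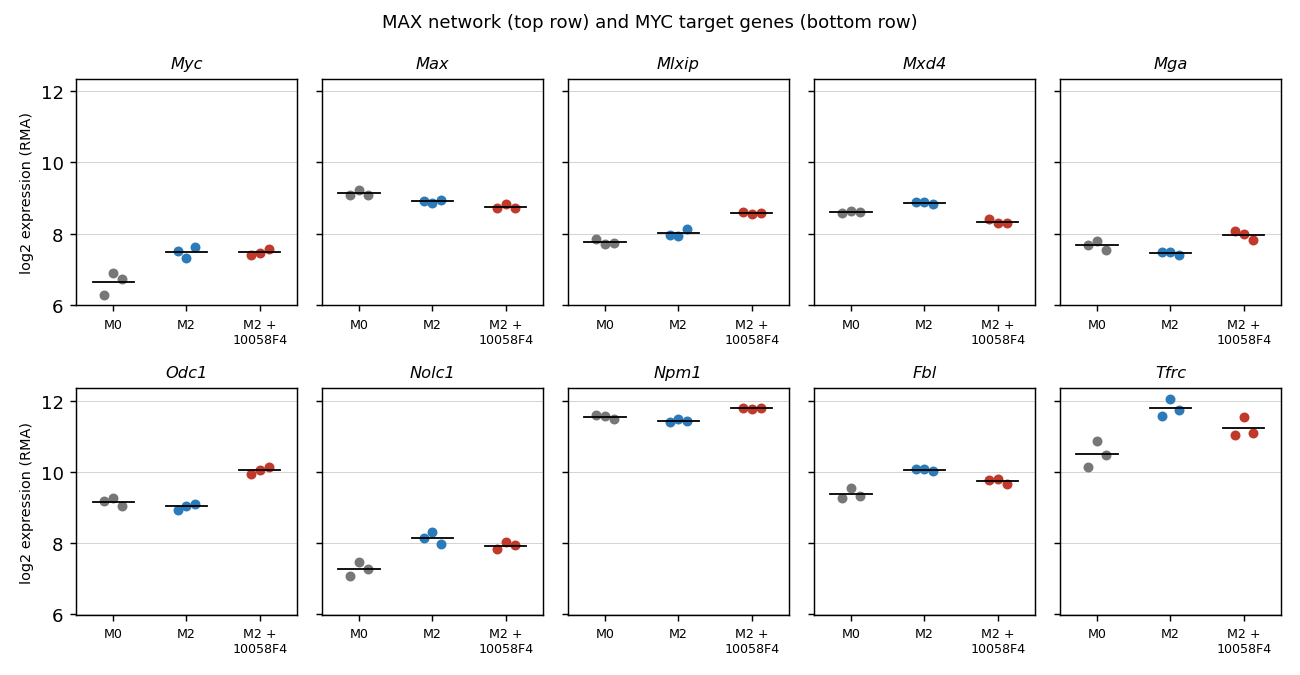
Log2 expression after RMA (vertical axis) on each array (points) of M0, M2 and M2 + 10058F4 cells, with the mean of 3 arrays as a line, for 5 genes of the MAX network (top row) and 5 MYC targets (bottom row). Myc lies at the same mean of 7.47 in both cytokine groups, and Odc1 stands out with the inhibitor at 10.04 against 9.16 in M0 and 9.03 in M2.

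DNA replication genes leaned down in both cytokine groups. With 10058F4, 14 of 25 tested members were lower than in M0 (median -0.51), against 8 in M2 (median -0.43), and 1 was lower than in M2. The 14 became 24 without M0 replicate 1, 7 without M0 replicate 2, 9 without 10058F4 replicate 1 and 8 without 10058F4 replicate 3. The 8 became 21 without M0 replicate 1 and 3 without M0 replicate 2, M2 replicate 1 or M2 replicate 3, and 5 without M0 replicate 3. Cdc6, which loads the replicative helicase, read 5.44, 6.50 and 6.06 in M0, 4.22, 4.99 and 4.25 in M2 and 4.24, 4.66 and 3.75 with 10058F4. The M0 arrays spread by more than a 2-fold change and lay above all the others (-1.79 with the inhibitor, SE 0.29, adjusted p = 0.00029); the inhibitor group was below the filter's level. Of 26 tested mitosis genes 1, Mki67, was called against M0 (1.14, adjusted p = 0.0022; list median -0.07). Mki67, a marker of cycling cells, had no call between M2 and M0 (0.53) or between the inhibitor and M2 (0.62, adjusted p = 0.09), and both were called when the replicate numbers were blocked (adjusted p = 0.029 and 0.018) or without M0 replicate 2 (adjusted p = 0.0096 and 0.03).

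Most cholesterol synthesis genes were called higher than in M0 in both cytokine groups. With 10058F4, 11 of 18 tested members were higher than in M0 (median 0.64), against 14 in M2 (median 0.73). All 11 were also called in M2, and the other 3 of the 14, Hsd17b7, Sc5d and Stard4, had 0.07, 0.46 and 0.38 against M0 with the inhibitor, with no call. Against M2, 4 were lower, and these became 1 without M2 replicate 2 or 10058F4 replicate 1 and 2 without 10058F4 replicate 3. Mvd, a decarboxylase of the mevalonate pathway, was 0.98 above M0 and 1.29 in M2. Insig1, the sterol sensor that restrains the pathway, was 0.88 above M0 and, unlike the enzymes, was called higher than in M2 (0.37).

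**Figure D5:**
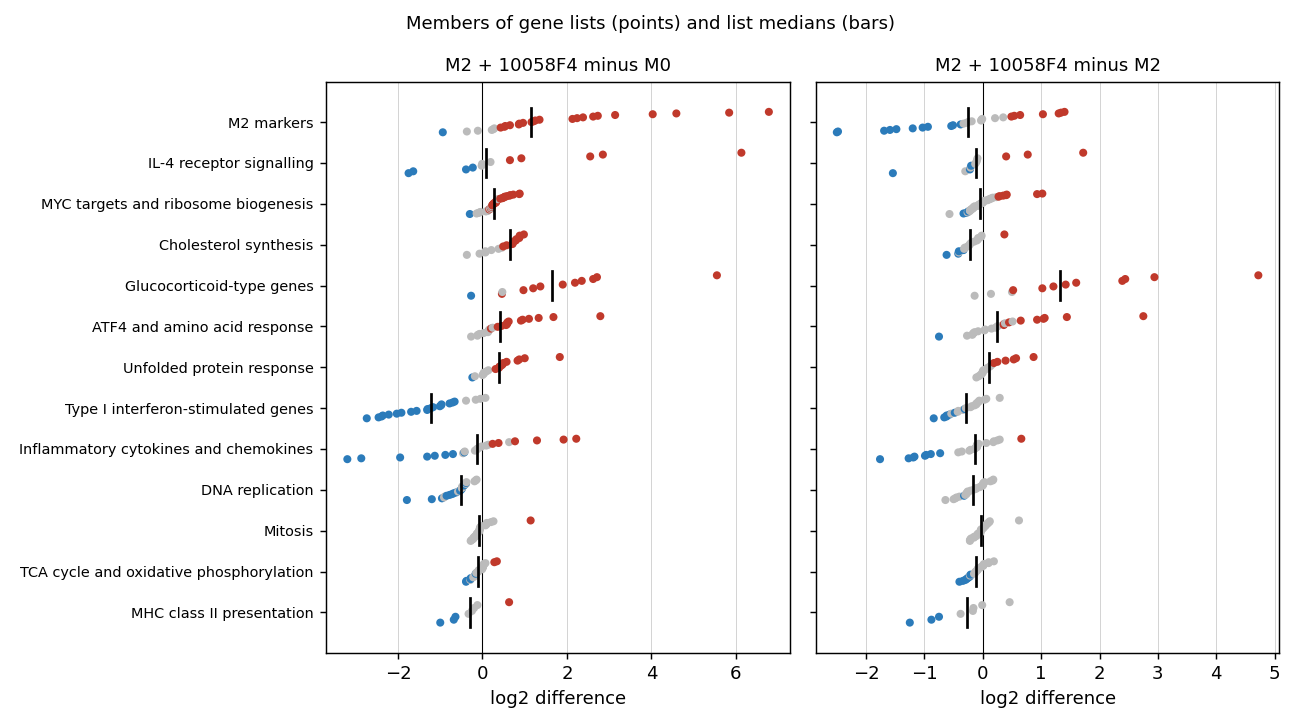
Log2 differences (horizontal axes) of the tested members (points) of 13 gene lists for M2 + 10058F4 minus M0 (left) and minus M2 (right); red members were called higher, blue lower and grey not called by limma, and black bars are list medians. M2 markers lie mostly right of zero against M0 (21 of 27 called higher) and on both sides against M2 (7 higher, 11 lower).

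Markers of other cell types were listed too. Among 6 tested dendritic cell markers 1, Batf3, was called higher than in M0 with 10058F4 (1.60), after a rise of 2.90 in M2, and the others, Flt3, Siglech, Zbtb46, Ccr7 and Xcr1, had no call. The summed level of the dendritic cell list was 8.01 to 8.18 in M0, 9.94 to 10.26 in M2 and 9.02 to 9.18 with 10058F4. For neutrophil markers 1 of 7, S100a8, was lower than in M0 (-0.77), and the summed level was 8.90 to 9.01 in M0 and 8.50 to 8.56 with the inhibitor. For B cells 1 of 4, Cd79b, was lower (-0.34), a call lost without M0 replicate 1 or 2 or 10058F4 replicate 1 or 3 (adjusted p from 0.072 to 0.15). For stromal cells the median difference of 6 genes was 0.07, with summed levels of 8.84 to 9.60 and 8.75 to 9.69. The single tested eosinophil marker, Siglecf, was lower than in M0 with 10058F4 (-0.95, adjusted p = 0.026) and in M2 (-0.85, adjusted p = 0.049), and the summed level of that list was 7.74 to 8.10 in M0 and 6.88 to 7.33 with the inhibitor. The Siglecf call was lost without M0 replicate 1 or 3 or 10058F4 replicate 2 (adjusted p from 0.081 to 0.11). Small rises were called for 1 of 3 T and NK cell markers, Ncr1 (0.29), 1 of 3 mast cell and basophil markers, Tpsb2 (0.27), and 1 of 2 erythroid markers, Epor (0.36). The M0 levels of Ncr1 and Tpsb2 were below the filter's level. Each of these 3 calls was lost without any 1 of several arrays (highest adjusted p 0.093, 0.16 and 0.16), and that of Epor also with the replicate numbers blocked (adjusted p = 0.052). The summed levels of the 3 lists were 6.65 to 6.80, 6.67 to 6.80 and 6.86 to 7.16 in M0 and 6.80 to 6.90, 6.78 to 6.88 and 7.23 to 7.37 with 10058F4. The part of these cells in the results was not tested. Of the 11 macrophage identity genes 4 were lower than in M0 and 1 higher, beside 19.1% and 14% of all tested genes. The lower ones were Fcgr1, a high-affinity IgG receptor (-1.57), Cd14, a co-receptor for LPS (-0.62), Spi1, the myeloid factor PU.1 (-0.58), and Cx3cr1, the fractalkine receptor (-0.51). The higher was Mertk. Among the members without a call, Csf1r, Adgre1 and Lyz2 had differences from M0 of 0.03, 0.02 and -0.01. In bulk samples, fewer cells of a type and less RNA per cell cannot be told apart.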

How the data were processed

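Biotin-labelled cRNA of every sample was hybridised to its own one-colour array, 15 in all and 3 in a group, per the labels' protocols. The deposited table gives log2 values, and the submitters' processing notes name RMA as the authors' method. That the base is log2 was judged from the range of the values, and no RMA version was stated in the sources used here. RMA forces the arrays to 1 distribution, so a shift of most genes in 1 direction would be hidden. Sample titles gave the groups and replicate numbers.

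Of 45101 probe sets 64 were controls, and in the platform annotation 34945 had 1 gene, 932 several and 9160 none, and 34741 were found by gene ID in the RefSeq table of GRCm38.p6. Where a gene had several, the highest mean over 15 arrays chose the probe set that stood for it, for 18193 genes. A gene was tested if it lay above the array's 40th percentile (4.34 to 4.52) on at least 3 arrays, which left 13703 and took out 4490. A linear model with 5 group means was fitted to all 15 arrays in limma (lmFit and eBayes; residual degrees of freedom 10, prior 3.86), and p-values of each contrast were adjusted by Benjamini-Hochberg. Of 621 list symbols 580 had a probe set and 547 were tested.

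Genes were named by rule: the MAX network, the 10 largest rises and falls against M0 that were called without overlap of the arrays, the 5 largest persisting and 8 largest reduced effects in each direction, the 10 genes farthest above and below both levels, up to 4 called members per list with the largest difference, and any M2 marker or MYC target. Clone and model names were passed over. The genes given with nutlin-3a, the remaining genes of macrophage identity, dendritic cells and MHC class II, and Il4ra, Il13ra1 and Stat6 were chosen after their values were seen. The members and gene lists were chosen with earlier results of these data known.

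Replicate numbers 1 to 3 recur in all groups. Deviations from the group means of same-numbered arrays correlated across genes with r from 0.37 to 0.47 for the inhibitor and M0, 0.23 to 0.42 for M2 and M0 and 0.31 to 0.37 for the inhibitor and M2, all above the limit of 0.1 for pairing, against at most -0.03 for other numbers. Deviations within a group cancel out, so a positive value for the same number makes the others negative on average. The reported values come from the fit without the replicate numbers. The blocked value is given beside a reported difference whose call it changes. On simulated data for the inhibitor against M0 over 13703 genes, 48% of genes changed 1.25-fold were recovered, 76% at 1.5-fold, 98% at 2-fold and 100% at 4-fold, with 11 false among 172 calls. The simulation changed 50 genes at each fold, with independent noise and no replicate effect. The data had 1912 genes called higher and 2613 lower and related replicate numbers, so these rates need not hold for them. Software was limma 3.58.1 in R 4.3.3, and pandas 2.3.3 and matplotlib 3.10.9 in Python 3.11.15.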

Additional observations from a re-analysis of the deposited data

How the results depend on the processing

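Alternatives were other filters, all or only specific probe sets, 2 other scalings, a fit of the 9 arrays alone, array weights, a trended and robust prior, a 2-fold rule, the replicate block and each array left out; the counts for gene lists under them were added after seeing the data. With array weights, reduced falls numbered 994 and genes above both levels 1000. With arrays centred on the median, persisting rises numbered 1572. Requiring 2-fold in each comparison left 241 genes higher and 298 lower than M0, 119 persisting rises and 124 persisting falls, 34 reduced rises and 26 reduced falls, and 70 genes above and 51 below both levels. Leaving out 1 array at a time gave 1480 to 1848 genes higher and 2084 to 2567 lower than M0, 775 to 850 persisting rises, 1194 to 1446 persisting falls, 323 to 423 reduced rises, 417 to 628 reduced falls (417 without M2 replicate 1), 495 to 607 genes above and 556 to 743 below both levels. With the replicate block the counts were 2118 and 2813 against M0, 1087 and 1753 persisting, 554 and 757 reduced, and 754 above and 912 below both levels, each within 1.5 times of the reported count. Among named genes the block gained 25 calls and lost 1. Those not given above were of Mxi1, Gins1, Ifit2, Dusp4, Cd14 and Fn1 against M2, Mnt against M0, and Mlx, Gins1, Fads1, Ehhadh, Fcgr4, Cd209a, Pes1 and Utp20 in M2 against M0. Among 13347 values of 237 named genes under the alternatives, 12708 kept their side of the threshold. A change of direction without a call in either fit was counted among these 12708. Calls were lost by 417 values and gained by 217, and 5 reversed direction with a call in the reported or the alternative fit. These were Cycs against M2 with the mean of all probe sets (-0.25) and with specific probe sets (-0.28), Pa2g4 in M2 against M0 with the mean of all probe sets (-0.02), Idh3a against M0 (-0.05) and Jdp2 in M2 against M0 (0.24), both with specific probe sets. The causes were not tested. Levels under the array's 40th percentile may be background, which leaves the size of a difference from them inexact.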

Other observations

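Genes of the circadian clock, which were not described above as a group, moved with 10058F4 more often up than down. Against M0, 6 of 15 tested members were higher and 3 lower (median 0.27), and against M2 7 were higher and 1 lower (median 0.30). Over all tested genes, 14% were higher and 19.1% lower than M0, and 10.6% higher and 10.2% lower than M2. The 6 became 4 without M0 replicate 1, with 3 still lower, and the 7 became 5 without 10058F4 replicate 1. Nfil3, a repressor in the clock's output and in immune cells, was 3.28 above M0, most of which it had in M2 (2.99); the remaining 0.28 had no call (adjusted p = 0.075) and was called with the replicate numbers blocked (adjusted p = 0.045). Cry1, a core repressor, was 1.36 above M0 and 1.48 above M2, with no call in M2 alone (-0.12), and Dbp, an output factor, had -1.66 against M0 and -1.78 in M2.

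NRF2 targets, the antioxidant genes, fell with the cytokines: 10 of 14 tested members were lower than M0 in M2 (median -0.56) and 5 with the inhibitor (median -0.33), where 4 were higher than in M2. The 5 became 3 without M0 replicate 2 and 8 with the replicate numbers blocked. Osgin1, a growth inhibitor of this group, had -0.95 against M0 and -0.64 against M2. Among 23 tested p53 targets, 4 were higher and 6 lower than in M0 with 10058F4 (median -0.01). This is near the shares over all tested genes, 14% and 19.1%. Among the higher were Plk3 and Cdkn1a, 1.01 and 0.61 above M0. Sesn1, a stress sensor, had -0.99 against M0 and -0.74 against M2, and its 4 probe sets ran from -0.74 to 0.07 against M2. Plk2, a kinase, had -1.02 against M0 and -1.04 against M2, and its probe sets disagreed in direction.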
